A study of Rattus norvegicus with 12 samples.

Results

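The elastic fibre and lysyl oxidase genes examined here were chosen by name. The list held 10 genes: Eln, Fbn1, Fbln1, Fbln5, Efemp2, Mfap4, Emilin1, Lox, Loxl1 and Loxl2. Probes were assigned through their RefSeq accessions, which gave 11 probes for 9 of the 10 genes among 20425 features tested on the array. No probe was matched to Lox by accession, and Lox is not analysed here. All 11 probes were well above background on all 12 arrays, so no listed gene with a matched probe was lost to the filter on dim probes.

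Total RNA came from the bladder body of 12 male Fischer 344 rats, an inbred strain, and each rat had an array of its own. The 4 old restricted rats were 25 to 28 months old and had been given food on 3 days a week since the age of 6 weeks, which cut their calories by about 40%. The 4 old fed rats were of the same ages and ate freely, and the 4 young fed rats were 6 months old and ate freely. The title of the series asks about age-associated inflammatory and oxidative change in the bladder and a preventive effect of caloric restriction.

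Elastic fibres let the bladder wall stretch as it fills and recoil as it empties. They form when tropoelastin, the product of Eln, is laid down on a scaffold of fibrillin microfibrils with the help of fibulins, and lysyl oxidases then cross-link the elastin chains, as they also do fibrillar collagens. Elastin is made mostly in early life and turns over slowly, so the mRNA level in an adult tissue need not follow the amount of fibre present.

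Levels are log2 signal over the 75th percentile of an array's spots, given as mean ± SD over n = 4 rats or as single values in the order of replicates 1 to 4. A level of one probe cannot be set against that of another, so genes are compared by their differences between groups and not by their levels. The tests are moderated linear models (limma) over all features, with Benjamini-Hochberg adjustment over all of them and a threshold of 0.05. Arrays of 1 group correlated at 0.985 to 0.997 across features, and arrays of different groups at 0.981 to 0.994. The 8 arrays of fed rats lay on 1 slide, with old fed rats in row 2 and young fed rats in row 1, and the 4 arrays of restricted rats lay on another slide read in another scan. Slide and restriction therefore cannot be told apart, nor can array row and age. In every group replicates 1 to 4 lay in array columns 1 to 4. Mean levels of the urothelial markers lay between 4.90 and 5.0 in old restricted rats, 4.69 and 4.87 in old fed rats and 4.70 and 4.83 in young fed rats, and those of the smooth muscle markers between 5.0 and 5.23 in old restricted, 3.85 and 5.30 in old fed and 5.36 and 5.51 in young fed rats. The low end of the old fed range is replicate 4, in which Tagln lay at -1.97, against 5.82 to 6.33 on the other 11 arrays. In RNA from whole tissue, fewer cells of a type and less RNA per cell cannot be told apart.

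RefSeq promoter sequence (GRCr8) was at hand for 4 of the 10 genes: Fbn1, Fbln5, Efemp2 and Loxl1. Loxl1 and Efemp2 are shown because Loxl1 varied most from rat to rat among these 4 and Efemp2 least, with ranges over 12 arrays of 1.10 and 0.184 log2 units. Each sequence is the 250 bases before the start site used by the promoter table, 5′ to 3′ on the gene's own strand, at chr8:67612225-67612474 (minus strand) for Loxl1 and at chr1:212211472-212211721 (plus strand) for Efemp2. The Loxl1 start site is the outer end of the gene's annotated span, while that of Efemp2 lies 665 bases inside the span. Capitals mark GGGCGG, the core of a GC box, on either strand, including copies that overlap.
Loxl1: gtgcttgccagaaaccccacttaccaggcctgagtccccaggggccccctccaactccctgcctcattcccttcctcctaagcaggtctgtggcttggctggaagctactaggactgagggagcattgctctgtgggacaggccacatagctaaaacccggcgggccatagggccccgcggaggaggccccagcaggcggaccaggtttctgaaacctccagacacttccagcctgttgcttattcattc
Efemp2: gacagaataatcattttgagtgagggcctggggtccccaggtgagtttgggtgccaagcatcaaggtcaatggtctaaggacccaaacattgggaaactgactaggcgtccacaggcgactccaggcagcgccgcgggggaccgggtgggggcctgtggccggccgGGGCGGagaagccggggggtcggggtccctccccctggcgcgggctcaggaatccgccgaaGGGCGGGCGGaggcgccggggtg
The Efemp2 promoter held GGGCGG 3 times and the Loxl1 promoter 0 times, and 30.5% of 33469 rat promoters of this length held it at least once. CCAAT was found once on either strand for Efemp2 and not for Loxl1, with 34% of all promoters holding it. TATAAA and the CArG box, which binds serum response factor, were in neither sequence, with 12.9% and 1.5% of all promoters holding them. The 2 sequences had 60.4% and 68.0% G and C for Loxl1 and Efemp2, against a median of 51.2%. Such matches describe these letters only.

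With age, 1 of the 9 genes changed: Loxl2 was 1.73-fold lower in old fed than in young fed bladders, and 0 of 9 were higher. Over all features, 1.63% were called higher and 2.1% lower in old fed rats, and this split depended on the scaling, with 332 higher and 428 lower as reported, 376 and 269 with quantile scaling and 355 and 306 with median centring. The median log2 difference of the 9 genes was -0.087, beside -0.046 over all features. Of the 9 differences 2 were above 0 and 7 below, where 38% were above 0 over all features. With restriction, 0 of the 9 genes passed in either direction (limma; at an unadjusted p under 0.05 there were 0 higher and 1 lower), beside 1.62% of features higher and 2.02% lower in old restricted than in old fed rats. Their median difference was -0.105, beside 0.025 over all features. Between old restricted and young fed rats 0 of 9 passed as well (limma; at an unadjusted p under 0.05 there were 0 higher and 4 lower), beside 3.19% of features higher and 5.99% lower. There the median was -0.192, beside -0.012 over all features. The comparisons share groups, so their values are not independent of each other.

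**Figure D1:**
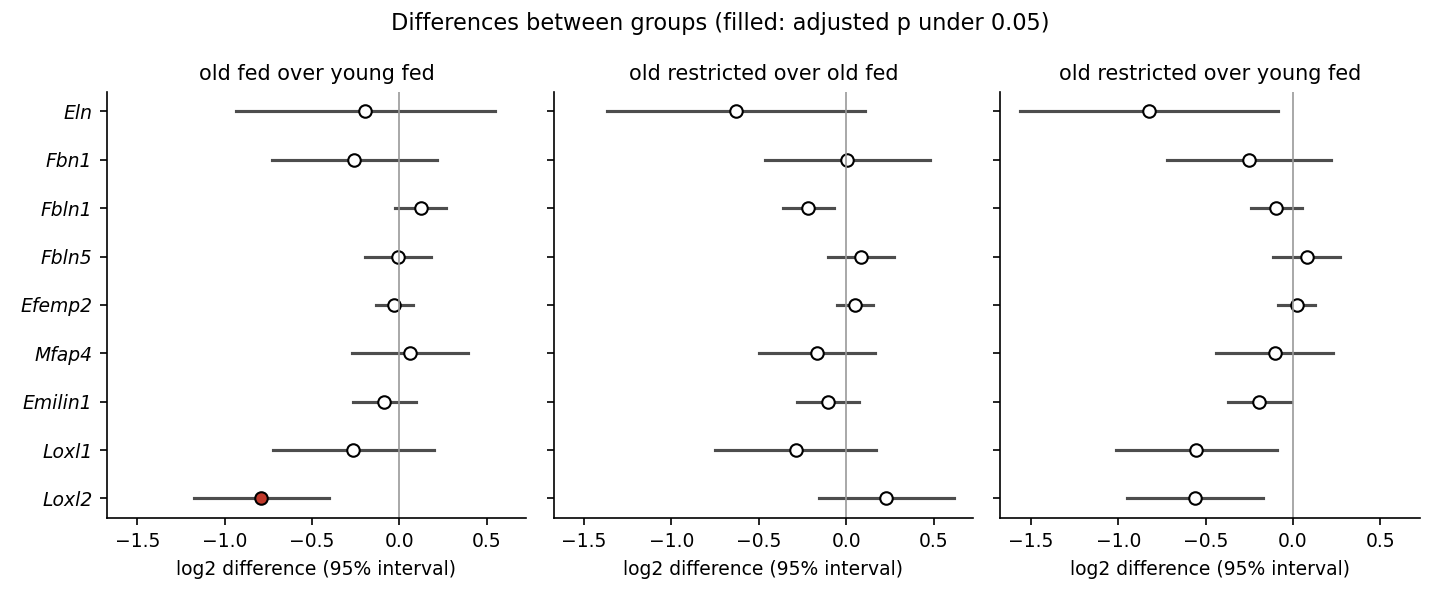
Log2 differences of the 9 genes (x axis) in the 3 comparisons (panels, named above each), with the first-named group over the second. Points are limma estimates over 12 arrays, bars are 95% intervals and a filled point has an adjusted p under 0.05. Loxl2 with age, at -0.79, is the 1 filled point, and the intervals of Eln are the widest.

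Loxl2, a lysyl oxidase relative that oxidises lysines of collagen and elastin, had levels of -0.09, -0.41, -0.65 and -0.73 in old fed rats, against 0.61, 0.64, 0.21 and -0.18 in young fed rats. Of the 4 old fed rats 3 lay below all young fed rats, and old fed replicate 1 lay above young fed replicate 4, so the groups overlap. The means were -0.47 ± 0.29 in old fed and 0.32 ± 0.39 in young fed rats, a log2 difference of -0.79 (SE 0.18, 95% interval -1.18 to -0.40, adjusted p = 0.038 by limma). Rats of the same array column differed by -0.70, -1.05, -0.85 and -0.56 in columns 1 to 4. Columns mark no known pairing of the rats, so these values add no support to the call. The call lay close to the threshold. It was lost, at adjusted p = 0.053 to 0.094 and log2 differences of -0.83 to -0.68, when young fed replicate 1, 2 or 3, old fed replicate 2, 3 or 4 or restricted replicate 1, 2 or 4 was left out, and it was kept without the other 3. It was also lost with normexp background correction (adjusted p = 0.052, and 0.06 with quantile scaling), without the brightness trend of the model (0.052) and with the 2 groups alone (0.1).

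In old restricted rats Loxl2 lay at -0.27, -0.27, -0.13 and -0.28. These 4 values lie inside the range of the old fed rats, and 3 of them lie below all young fed rats. The difference of old restricted over old fed rats was 0.23 (SE 0.18, 95% interval -0.16 to 0.62, adjusted p = 0.49), and that of old restricted over young fed rats was -0.56 (SE 0.18, 95% interval -0.95 to -0.17, adjusted p = 0.069 by limma). Without young fed replicate 4 the second of these passed, at -0.73 (adjusted p = 0.022). The order of the means was old fed, old restricted and young fed from low to high, and of the neighbours neither pair differed beyond the threshold.

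Markers of other cells moved with age as well. Over all features 38% of the differences with age were above 0, so a share below 0 is common. Of 5 fibroblast markers tested, 2 were lower in old fed than in young fed rats, Cd34 and Pdgfrl, and 5 of 5 differences were below 0. At an unadjusted p under 0.05 (limma) 4 of the 5 were lower. The mean level of the 5 markers was 0.38 to 0.48 in old restricted rats, 0.26 to 0.63 in old fed rats and 0.67 to 0.94 in young fed rats. Of 7 smooth muscle markers 1, Myh11, was lower and 7 of 7 differences were below 0. At an unadjusted p under 0.05 (limma) 6 of the 7 were lower. For old restricted over young fed rats 7 of 7 were below 0 too, with 5 lower at that unadjusted p (limma). Of 6 leukocyte markers 3 were higher, with mean levels of -3.57 to -2.72 in old restricted, -2.71 to -2.13 in old fed and -3.80 to -3.27 in young fed rats. Of 3 prostate markers 2, Andpro and Klk1, were lower. Mean levels of the 3 markers were -7.25 to -6.14 in old restricted, -7.02 to -4.99 in old fed and -4.71 to -3.02 in young fed rats. Andpro lay at -10.34, -9.85, -5.78 and -10.08 in old fed rats. Negative control spots averaged -10.452 to -9.965 on these arrays, so Andpro was near the floor save in replicate 3. Of 6 urothelial markers 1, Krt5, was higher (log2 0.66, adjusted p = 0.036 by limma). The other 5 differences were below 0, with 2 lower at an unadjusted p under 0.05 (limma). None of 3 adipocyte markers passed (limma, with 2 higher at an unadjusted p under 0.05), with 3 of 3 differences above 0 and a median of 0.716, and none of 4 endothelial and 2 mesothelial markers passed (limma, 1 endothelial marker lower at an unadjusted p under 0.05). The part of these markers in the Loxl2 result was not tested.

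**Figure D2:**
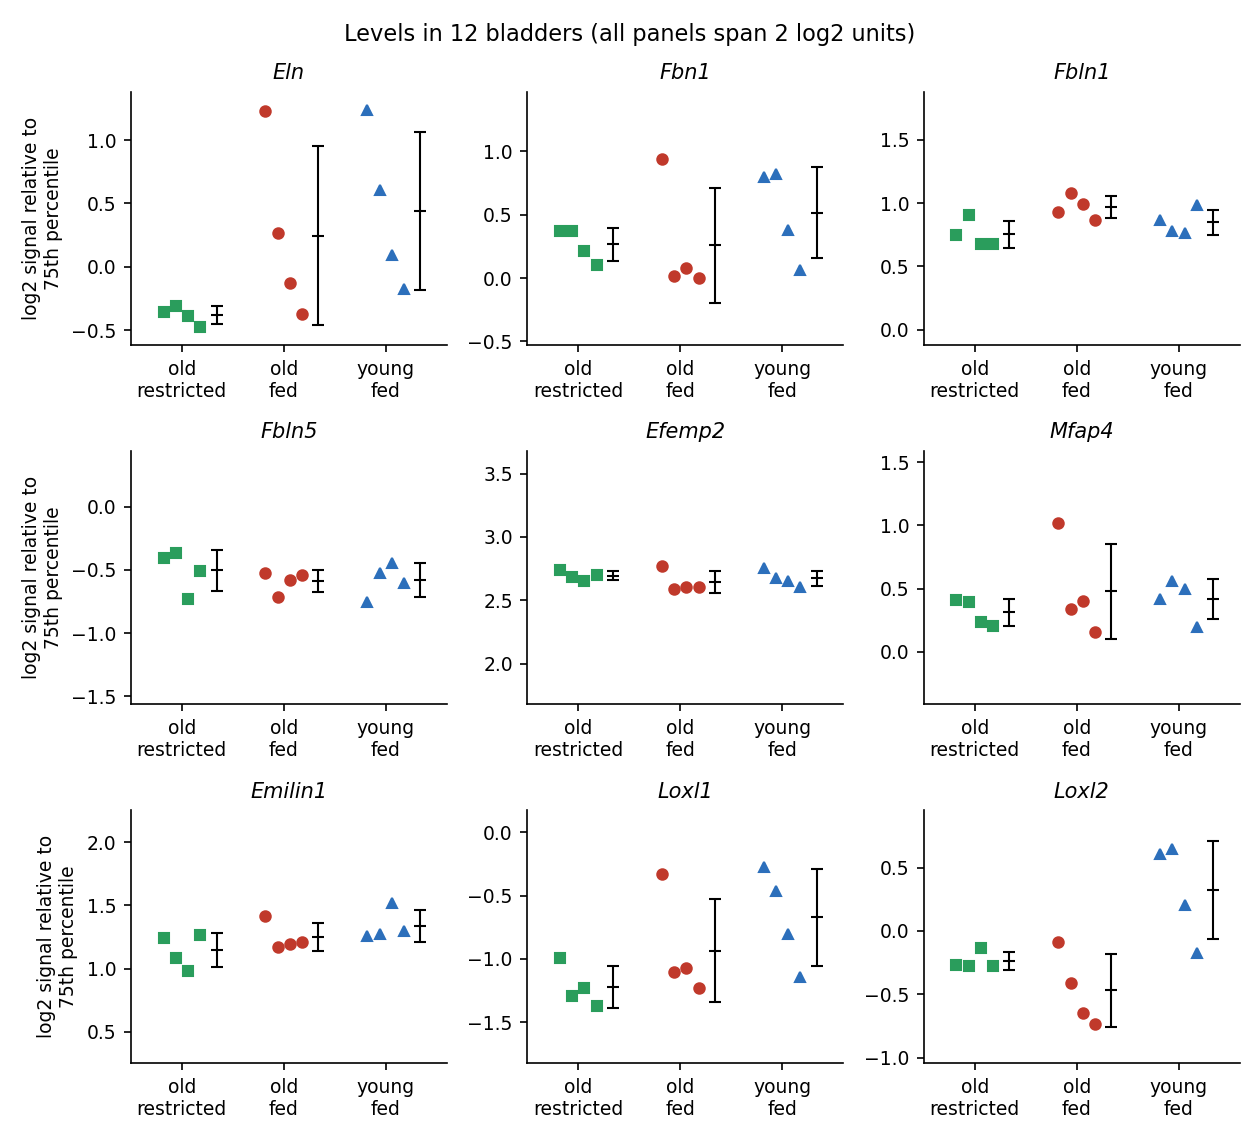
Level of each of the 9 genes (y axis, log2 signal relative to the 75th percentile of the array) in 4 old restricted, 4 old fed and 4 young fed rats, with points from left to right in the order of replicates 1 to 4 and bars for mean ± SD (n = 4). Each panel spans 2 log2 units, so heights can be compared between panels. The 4 restricted values of Eln, from its brighter probe, lie between -0.48 and -0.31, below all 4 young fed values. By its dimmer probe, not drawn, these groups overlapped.

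Eln encodes tropoelastin, the elastic core of the fibre. Its levels were -0.36, -0.31, -0.39 and -0.48 in old restricted rats, 1.23, 0.26, -0.13 and -0.37 in old fed rats and 1.24, 0.61, 0.09 and -0.17 in young fed rats. By this brighter Eln probe the restricted rats lay below all young fed rats. The share of all features with no overlap between these 2 groups was not counted. The fed groups spread over more than a log2 unit each and overlapped almost fully. The means were -0.38 ± 0.07 in old restricted, 0.25 ± 0.70 in old fed and 0.44 ± 0.62 in young fed rats. Old restricted over young fed rats differed by -0.83 (SE 0.34, 95% interval -1.57 to -0.09, adjusted p = 0.15 by limma). The interval for old restricted over old fed rats was -1.37 to 0.11 around -0.63 (adjusted p = 0.32), and without old fed replicate 1 the difference was -0.30. Old fed over young fed rats differed by -0.20 (95% interval -0.93 to 0.54, adjusted p = 0.75), and the sign turned without young fed replicate 1 (0.07) or old fed replicate 4 (0.01). None of these 3 differences passed the threshold after adjustment. The interval for old restricted over young fed rats left out 0, and those of the other comparisons included it.

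A dimmer Eln probe gave means of -5.37 ± 0.34 in old restricted, -5.24 ± 0.34 in old fed and -5.05 ± 0.47 in young fed rats. Its differences were -0.31 for old restricted over young fed rats (adjusted p = 0.46), -0.13 for old restricted over old fed rats (adjusted p = 0.80) and -0.19 for old fed over young fed rats (adjusted p = 0.67). The dimmer probe thus gave the same signs in all 3 comparisons, with smaller differences where restricted rats were compared.

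Fbn1 encodes fibrillin 1, the main building block of adult microfibrils. Its levels were 0.38, 0.37, 0.21 and 0.11 in old restricted rats, 0.94, 0.02, 0.08 and -0.002 in old fed rats and 0.80, 0.82, 0.38 and 0.07 in young fed rats. Old fed replicate 1 stood above the other 3 rats of its group by more than 0.8 log2 units, and the 3 groups overlapped. Old fed over young fed rats differed by -0.26 (SE 0.22, adjusted p = 0.48), old restricted over old fed rats by 0.01 (adjusted p = 0.99) and old restricted over young fed rats by -0.25 (adjusted p = 0.49).

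Mfap4, a microfibril-associated glycoprotein that binds elastin and collagen, lay at 0.41, 0.40, 0.24 and 0.20 in old restricted rats, 1.02, 0.34, 0.40 and 0.16 in old fed rats and 0.42, 0.56, 0.50 and 0.20 in young fed rats. Again the highest value was that of old fed replicate 1. The differences were 0.06 with age (adjusted p = 0.83), -0.17 with restriction (adjusted p = 0.57) and -0.10 for old restricted over young fed rats (adjusted p = 0.70). Without old fed replicate 1 the difference with age was -0.12 and that with restriction 0.01.

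Emilin1 encodes a glycoprotein at the interface of elastin and microfibrils. It averaged 1.14 ± 0.13 in old restricted, 1.25 ± 0.11 in old fed and 1.34 ± 0.12 in young fed rats. Of the 4 restricted rats 3 lay below all young fed rats, and the difference was -0.19 (SE 0.08, 95% interval -0.37 to -0.01, adjusted p = 0.16 by limma). Another Emilin1 probe gave the opposite sign, at 0.12 (adjusted p = 0.49). The differences with age and with restriction were -0.09 and -0.11 (adjusted p = 0.54 and 0.49), and 0.004 and 0.12 by the other probe.

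Some fibulins bring tropoelastin to microfibrils and to the cross-linking enzymes. The SD over 12 arrays was 0.129 for Fbln1, 0.125 for Fbln5 and 0.062 for Efemp2. It was 0.139 for Emilin1 and 0.23 to 0.615 for the other genes tested. Fbln1 encodes fibulin 1, a component of elastic fibres and basement membranes. Its levels were 0.75, 0.90, 0.68 and 0.68 in old restricted rats, against 0.93, 1.08, 0.995 and 0.87 in old fed rats. Of the restricted rats 3 lay below all old fed rats, with a difference of -0.22 (SE 0.07, 95% interval -0.36 to -0.07, adjusted p = 0.10 by limma). In young fed rats the levels were 0.87, 0.78, 0.76 and 0.98, and the differences were 0.12 for old fed over young fed rats (adjusted p = 0.29) and -0.09 for old restricted over young fed rats (adjusted p = 0.41).

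Fbln5 encodes fibulin 5, which mice need to assemble elastic fibres. It averaged -0.50 ± 0.16 in old restricted, -0.59 ± 0.09 in old fed and -0.58 ± 0.13 in young fed rats. Its differences were -0.01 with age (95% interval -0.20 to 0.18), 0.09 with restriction (-0.10 to 0.28) and 0.08 for old restricted over young fed rats (-0.11 to 0.27), with adjusted p = 0.96, 0.60 and 0.61. No bound lay farther from 0 than 0.28 log2 units.

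Efemp2 encodes fibulin 4, which mice also need for elastic fibres and which binds lysyl oxidase. Its 12 values lay between 2.59 and 2.77, the narrowest range of the 9 genes, and it averaged 2.69 ± 0.04 in old restricted, 2.64 ± 0.09 in old fed and 2.67 ± 0.06 in young fed rats. The 95% interval with age was -0.13 to 0.08 around -0.03, a value that turned to 0.01 with quantile scaling, and that with restriction was -0.05 to 0.16 around 0.05. Adjusted p was 0.74 with age, 0.58 with restriction and 0.81 for old restricted over young fed rats.

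Loxl1 encodes the lysyl oxidase relative that mice need to maintain elastic fibres in adult tissue. Its levels were -0.99, -1.30, -1.23 and -1.38 in old restricted rats, -0.33, -1.11, -1.07 and -1.23 in old fed rats and -0.27, -0.47, -0.81 and -1.14 in young fed rats. The order of the means, -1.22 ± 0.16, -0.93 ± 0.41 and -0.67 ± 0.38 in these groups, was that of Eln. Old restricted over young fed rats differed by -0.55 (SE 0.21, 95% interval -1.01 to -0.09, adjusted p = 0.12 by limma), with 3 of 4 restricted rats below all young fed rats. The differences with age and with restriction were -0.26 and -0.29 (adjusted p = 0.46 each).

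Among the fed rats the values of several genes followed the array column, which is also the replicate number. Eln in columns 1 to 4 was 1.23, 0.26, -0.13 and -0.37 in old fed rats and 1.24, 0.61, 0.09 and -0.17 in young fed rats, so within a column the fed groups differed by -0.01, -0.34, -0.23 and -0.20. Loxl1 differed within columns by -0.06, -0.64, -0.27 and -0.09. The column 4 array was the lowest of its group in all 3 groups for 5 of the 9 genes (Eln, Fbn1, Mfap4, Loxl1 and Loxl2), beside 1.6% of all features. In each group alone it was lowest for 6 of 9, beside 24.0%, 24.9% and 22.7% of features in old restricted, old fed and young fed rats. For Eln this holds for the brighter probe only. By the dimmer Eln probe column 3 was lowest in both fed groups. It lay at -5.57 in old fed and -5.44 in young fed rats, against -5.43 and -5.18 in column 4. The column 1 array was highest for 4 of 9 genes in old restricted, 8 of 9 in old fed and 3 of 9 in young fed rats, beside 34.2%, 29.6% and 32.6% of features. This pattern was described after the values were seen and has no test. The labels do not say whether a column stands for anything besides a place on the slide, so rat and place on the slide cannot be told apart.

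**Figure D3:**
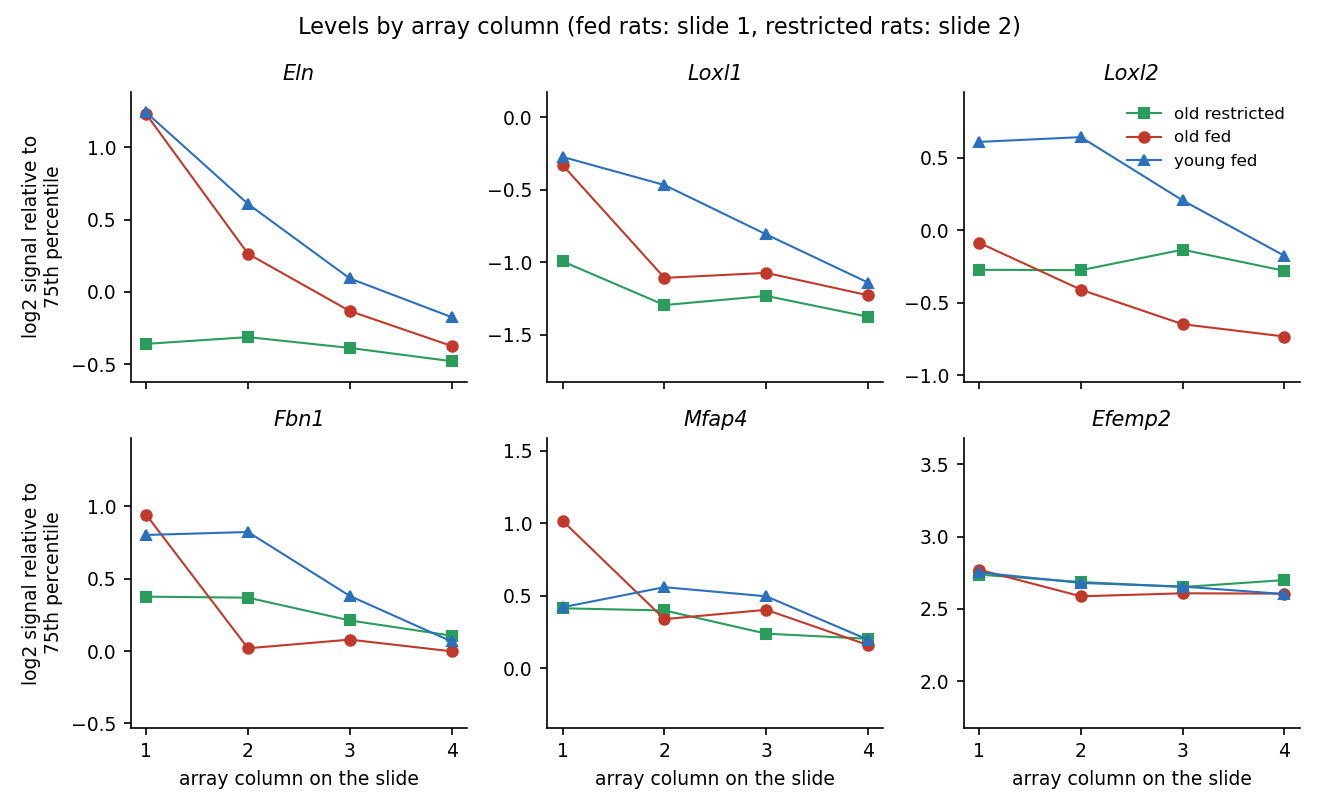
Level of 6 genes (y axis, log2 signal relative to the 75th percentile of the array) by array column (x axis), which equals the replicate number, for old restricted (slide 2), old fed and young fed rats (slide 1). Lines join arrays of a group. Eln, by its brighter probe, steps down from column 1 to 4 in both fed groups and lies between -0.48 and -0.31 in the restricted group. Efemp2 stays between 2.59 and 2.77.

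For several of the 9 genes the SD within a group differed among the groups, which was not tested. Restricted rats lay alone on their slide, so slide and spread between rats cannot be told apart. For 6 of the 9 genes (66.7%) the SD was smallest in the old restricted group, beside 38.5% of all features. For Eln by its brighter probe the SD was 0.07 in old restricted, 0.70 in old fed and 0.62 in young fed rats. By its dimmer probe the SDs were 0.335, 0.336 and 0.467 in the same order, so the contrast rests on the brighter probe. For Loxl2 the SD was 0.07, 0.29 and 0.39 in these groups. For Fbln1, Fbln5 and Emilin1 the SD was largest in restricted rats, at 0.11, 0.16 and 0.13. The median SD of the 9 genes was 0.108 in old restricted, 0.29 in old fed and 0.158 in young fed rats, beside 0.103, 0.109 and 0.12 over all features. Without the column 1 array of each group, a setting chosen after seeing the data, the SD was smallest in restricted rats for 4 of 9 genes (44.4%), beside 34.8% of features, and the median SDs were 0.104, 0.094 and 0.194. The pooled error of the linear model covers all 3 groups. For the brighter Eln probe it is therefore wider than the restricted rats' own spread and narrower than that of the fed rats.

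**Figure D4:**
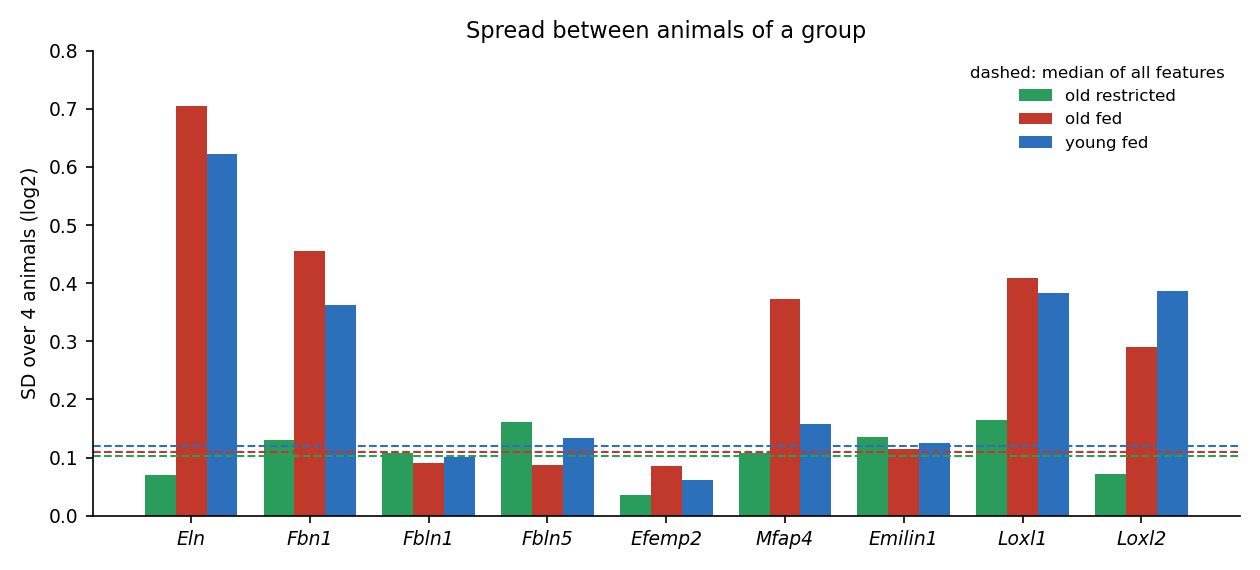
SD over 4 rats (y axis, log2 units) of each of the 9 genes in old restricted, old fed and young fed rats, with dashed lines at the median SD of all 20425 features in each group. Bars of Eln, from its brighter probe, reach 0.70 in old fed and 0.62 in young fed rats and 0.07 in old restricted rats. Its dimmer probe, not drawn, gave 0.336, 0.467 and 0.335 in these groups.

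The genes most like Eln over the 12 arrays, by root mean square difference after centring each gene, were Elmod1 (0.247), Aspn (0.253) and Tac3 (0.257), where the median over all features with a symbol was 0.605. Being the 3 smallest differences, they lie under that median by choice. The SD of Eln itself over the 12 arrays was 0.615. Aspn, which encodes the small matrix proteoglycan asporin, lay at -2.18, -2.11, -2.06 and -2.04 in old restricted rats, -0.69, -1.79, -1.71 and -2.13 in old fed rats and -1.01, -0.91, -1.21 and -1.66 in young fed rats. Tac3, a tachykinin gene, and Elmod1 were likewise highest in old fed replicate 1, at -1.90 and -5.94. Loxl1 was the gene ranked 4 for likeness to Eln, at 0.273, and Fbn1 ranked 23, at 0.374. Taken after their values were seen, the genes nearest to Loxl2 were Sparc (0.142), a matrix glycoprotein gene, and Col3a1 (0.16), and Serpinf1 was nearest to both Fbn1 (0.12) and Loxl1 (0.135). All such likeness rests on 12 arrays that share slides and columns.

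Of 49 related genes listed for microfibrils, fibulins and emilins, lysyl oxidase relatives and their activation, elastin assembly, elastin-degrading enzymes and collagen substrates, 37 were tested. With age 4 were lower and 0 higher in old fed than in young fed rats, beside 2.1% lower and 1.63% higher over all features. Of the 37 differences 10 were above 0, beside 38.0% over all features, and the median was -0.154, beside -0.046. With restriction 1 was higher and 1 lower (median 0.016), beside 1.62% and 2.02% of features. Between old restricted and young fed rats 0 were higher and 3 lower (median -0.103), beside 3.19% and 5.99% of features. Where groups are said below not to overlap, the share of all features that do likewise was not counted. Such separation is description and adds no support to a call.

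Fbn2 encodes fibrillin 2, known mostly from microfibrils of developing tissue. It lay at -3.15, -3.03, -3.25 and -3.06 in old restricted rats, -2.80, -3.73, -3.60 and -3.75 in old fed rats and -1.20, -2.11, -1.69 and -2.92 in young fed rats. It was 2.81-fold lower in old fed than in young fed rats (log2 -1.49, SE 0.31, adjusted p = 0.033) and 2.21-fold lower in old restricted than in young fed rats (log2 -1.14, adjusted p = 0.043), by limma. All restricted rats lay below all young fed rats, and 3 of 4 old fed rats did. The call with age was lost in 7 of 12 fits that left out 1 rat (young fed 1, 2 or 3, old fed 2, 3 or 4 or restricted 2), at adjusted p = 0.053 to 0.074 and log2 -1.53 to -1.23, and with the 2 groups alone (0.089). The second call was lost in 8 (young fed 1, 2 or 3, old fed 3 or any restricted rat), at adjusted p = 0.059 to 0.11 and log2 -1.19 to -0.88, and without the brightness trend (0.053). None of the other 8 microfibril genes tested passed in any comparison.

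Of 8 lysyl oxidase relatives and activating genes, 2 were lower and 0 higher with age. The 1 difference with age above 0 was that of Loxl4, at 0.44 (adjusted p = 0.085 by limma). Old restricted over young fed rats differed by 0.41 for Loxl4 (adjusted p = 0.082 by limma). Loxl3, a relative of Loxl2, lay at -2.88, -2.68, -2.84 and -2.80 in old restricted rats, -2.93, -3.26, -3.00 and -3.12 in old fed rats and -2.71, -2.68, -2.56 and -2.57 in young fed rats. All old fed rats lay below all rats of both other groups. The log2 difference with age was -0.45 (SE 0.08, 1.37-fold lower, adjusted p = 0.017 by limma), and it passed in 12 of 12 fits that left out 1 rat (adjusted p = 0.015 to 0.048), but not with the 2 groups alone (0.057). The difference with restriction was 0.28 (adjusted p = 0.068), which passed with normexp background correction (0.31, adjusted p = 0.035, and 0.30, adjusted p = 0.039, with quantile scaling).

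Bmp1 encodes the proteinase that cleaves the propeptides of lysyl oxidases and procollagens. It averaged 2.37 ± 0.08 in old restricted, 2.35 ± 0.14 in old fed and 2.70 ± 0.11 in young fed rats, and both old groups lay below all young fed rats. It was 1.27-fold lower with age (log2 -0.35, adjusted p = 0.035) and 1.26-fold lower in old restricted than in young fed rats (log2 -0.33, adjusted p = 0.022), by limma. The first call was lost without young fed 1, 2 or 3, old fed 2, 3 or 4 or restricted 2 (adjusted p = 0.057 to 0.088, log2 -0.36 to -0.30), by the other Bmp1 probe (-0.34, adjusted p = 0.057), without the brightness trend (0.05) and with the 2 groups alone (0.082). The second was lost without young fed 1 or 2 or restricted 1, 2 or 3 (adjusted p = 0.053 to 0.065, log2 -0.33 to -0.29).

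Col1a2, a chain of type I collagen and a lysyl oxidase substrate, averaged 5.99 ± 0.07 in old restricted, 5.83 ± 0.09 in old fed and 6.09 ± 0.08 in young fed rats. It was 1.2-fold lower with age (log2 -0.26, adjusted p = 0.034 by limma), with all old fed rats below all young fed rats. With quantile scaling the difference was -0.15 (adjusted p = 0.14, and 0.16 after normexp). The call was also lost without the brightness trend (0.05) and with the 2 groups alone (0.081), and leaving out young fed 1 or 2, old fed 2, 3 or 4 or restricted 2 ended it as well (adjusted p = 0.057 to 0.088, log2 -0.26 to -0.24). Col3a1, the chain of type III collagen, averaged 5.52 ± 0.04 in old restricted, 5.20 ± 0.38 in old fed and 5.78 ± 0.46 in young fed rats, and its difference with age was -0.58 (adjusted p = 0.13).

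Fkbp10, a chaperone of procollagen and tropoelastin in the endoplasmic reticulum, was 1.29-fold higher in old restricted rats, at -1.59 ± 0.06, than in old fed rats, at -1.97 ± 0.16 (log2 0.37, adjusted p = 0.042 by limma). All restricted rats lay above all old fed rats. The call was lost without young fed 2, old fed 2, 3 or 4 or any 1 restricted rat (adjusted p = 0.052 to 0.096, log2 0.33 to 0.40), with no filter on dim probes (0.051) and with the 2 groups alone (0.055). None of the other 6 elastin assembly genes passed in any comparison.

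Mmp14, a membrane-bound matrix metalloproteinase that cleaves collagen, was the 1 elastin-degrading enzyme of 8 tested to pass. It lay at 3.03, 2.97, 2.995 and 2.91 in old restricted rats, 3.21, 3.40, 3.32 and 3.39 in old fed rats and 3.03, 3.35, 3.26 and 3.39 in young fed rats. It was 1.28-fold lower in old restricted than in old fed rats (log2 -0.35, adjusted p = 0.025) and 1.21-fold lower in old restricted than in young fed rats (log2 -0.28, adjusted p = 0.038), by limma. The first call was lost without old fed 2, 3 or 4 or restricted 2, 3 or 4 (adjusted p = 0.053 to 0.076, log2 -0.36 to -0.33). The second was lost without young fed 2, 3 or 4, old fed 3 or any 1 restricted rat (adjusted p = 0.054 to 0.093, log2 -0.30 to -0.24), and with quantile scaling it was -0.22 (adjusted p = 0.082, and 0.076 after normexp). Median centring (0.056), no brightness trend (0.051) and the 2 groups alone (0.056) ended it too.

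**Figure D5:**
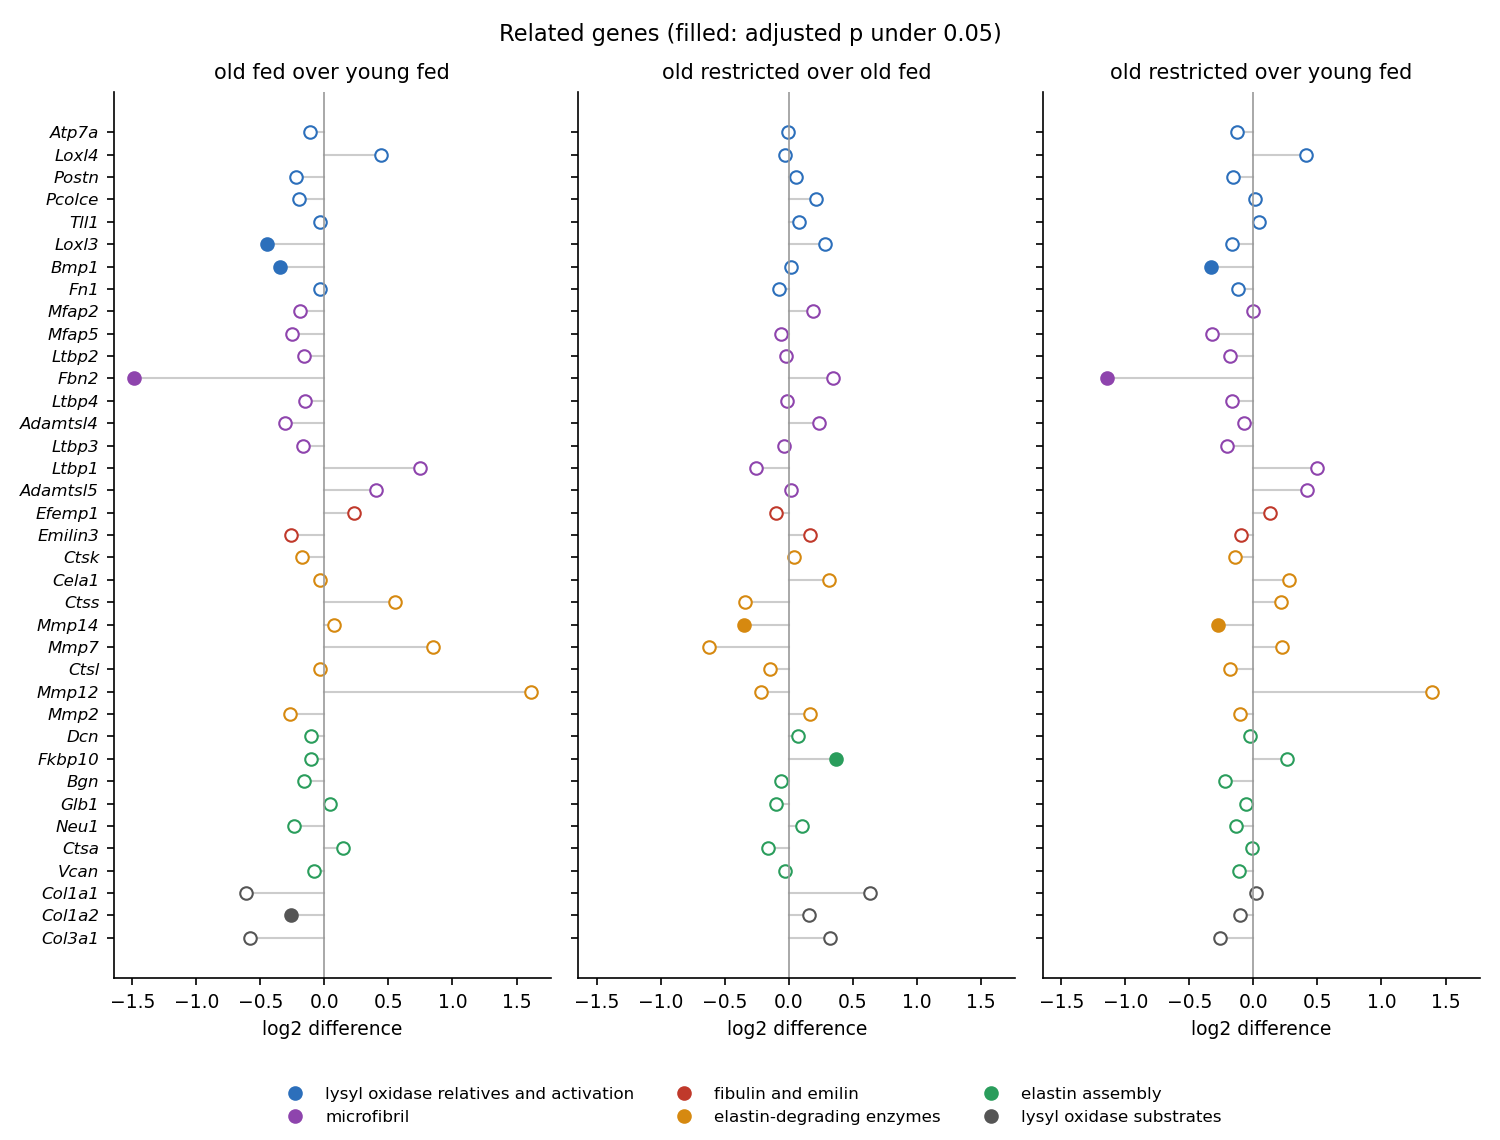
Log2 differences (x axis) of the 37 related genes tested, coloured by list, in the 3 comparisons (panels, named above each), with the first-named group over the second. Filled points have an adjusted p under 0.05 by limma: 4 with age, all below 0, 2 with restriction and 3 between old restricted and young fed rats.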

How the data were processed

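Cy3-labelled cRNA of 12 rats was hybridised to 1-colour Agilent arrays, 1 rat per array, per the labels' protocols. The deposited files hold spot intensities that Agilent Feature Extraction 10.7 had background-subtracted within each array, per the file headers and the submitters' processing notes, for array design 028279 with no scaling between arrays. The whole-series value table held the same intensities in 100% of spots (relative tolerance 1e-06), so the deposited table is linear and not centred; its column medians were 473.0 to 592.6.

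From the intensities, the log2 value was taken and each array's 75th percentile over 58717 non-control spots subtracted. Spots with an outlier flag were dropped, save for 91 averages where every spot had one, and 0 spots were saturated. Spots gave 30367 probe averages. The test used 23089 probes that were above background (in over 0.5 of spots) on 4 of 4 arrays in 1 group or more. Names came from RefSeq accessions without versions, matched to the GRCr8 gene table, which was used for names and promoters only and named 17998 probes (59.3%). The brightest probe stood for a gene, leaving 20425 features. The array percentiles were 4123.4 to 4696.7 in old restricted, 4646.1 to 4891.7 in old fed and 3993.2 to 4837.0 in young fed rats. Precision is limited by the number of arrays.

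limma 3.58 in R 4.3 fitted all 12 arrays (lmFit, eBayes with a brightness trend, 9 residual degrees of freedom). Tests were two-sided, and p-values were adjusted by Benjamini and Hochberg's method at 0.05. Scripts were tested on simulated data. Alternatives were quantile scaling, median centring, normexp (offset 50, on the median signal, since the mean signal is not in the files used), filters on dim probes, other probes, no trend, the compared groups alone, a replicate block, the series table and each rat left out. Replicate numbers mark no known pairing of the rats, and over all features correlations of same-numbered deviations were -0.19 to 0.095. Correlations over all features cannot exclude an order shared by a smaller set of genes.

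All listed genes with a probe matched by accession are described. Of the related genes, those passing in any comparison and otherwise at most the 2 brightest of a list were named, with Loxl4 and the 3 genes most like Eln. The genes and lists were chosen with earlier results of these data known. On principal component 1, old fed replicate 2 had a score of 51.89, against 7.27 to 13.74 for the rest of its group.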

Additional observations from a re-analysis of the deposited data

Results flagged for a closer look

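In 5 of the 27 sets of 4 rats formed by 9 genes and 3 groups (18.5%), 1 rat stood apart from the other 3 by Dixon's criterion at 95%, which chance gives about 1 time in 20. Over all features the share was 6.3% in old restricted, 7.1% in old fed and 6.5% in young fed rats. In 3 of these sets the rat was old fed replicate 1: Fbn1 lay at 0.941 (next highest 0.079), Efemp2 at 2.771 (next highest 2.608) and Emilin1 at 1.418 (next highest 1.213). The others were Emilin1 in young fed replicate 3, at 1.521 (next highest 1.299), and Loxl2 in old restricted replicate 3, at -0.133 (next highest -0.272).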

How the results depend on the processing

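The number of genes called with age, 1 as reported, was 0 with normexp, with normexp and quantile scaling, without the brightness trend and with the 2 groups alone, and 0 to 1 with a rat left out. Loxl2 was then -0.74 (adjusted p = 0.052), -0.73 (0.06), -0.79 (0.052) and -0.79 (0.1). Between old restricted and young fed rats the number was 2 in place of 0 with the replicate block, Loxl1 at -0.55 (adjusted p = 0.025) and Loxl2 at -0.56 (0.042), and 0 to 1 with a rat left out. The block changed no other count of the 9 genes, and it ended the calls of Bmp1 with age (-0.347, adjusted p = 0.059) and Fkbp10 with restriction (0.371, 0.068). The numbers mark no known pairing. Other settings that ended calls of related genes stand beside those calls. The count of 6 genes with the smallest SD in restricted rats was 4 without the column 1 arrays, an alternative chosen after seeing the data.

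Signs turned in differences that did not pass: Efemp2 with age was 0.011 with quantile scaling, 0.01 with normexp and 0.045 with both. Emilin1 by its other probe was 0.004 with age, 0.115 with restriction and 0.119 for old restricted over young fed rats, and with the mean of its probes 0.005 with restriction. Bmp1 with restriction was -0.002 by its other probe. With a rat left out, the difference with age ranged from -0.522 to 0.071 for Eln, -0.067 to 0.037 for Fbln5, -0.118 to 0.168 for Mfap4 and -0.003 to 0.117 for Mmp14. With restriction it ranged from -0.081 to 0.233 for Fbn1, -0.273 to 0.013 for Mfap4 and -0.025 to 0.079 for Bmp1, and for old restricted over young fed rats from -0.002 to 0.048 for Efemp2. The causes were not tested. Of 1089 recomputed differences, 970 kept sign and side of the threshold, 87 lost a call, 6 gained one and 26 changed sign, 0 of them in a difference that passed. These 1089 recompute 45 differences, of which 10 passed as reported, and only those 10 could lose a call. The series value table moved no value.

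Over all features the counts with age, 332 higher and 428 lower, were 691 and 2877 with no filter, 236 and 204 without the trend, 67 and 27 with the 2 groups alone, 215 and 283 with the block, 216 and 367 with normexp and 265 and 197 with normexp and quantile scaling. With restriction, 331 and 413 became 580 and 325 with normexp and 189 and 309 with the block. Between old restricted and young fed rats, 651 and 1223 became 781 and 2478 with no filter. With 4 rats a group and fed rats that spread widely, Eln, Fbn1, Loxl1 and Loxl2 have the widest intervals.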

Other observations

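Single arrays held isolated very low values. In 85 of 20425 features 1 array lay at least 3 log2 units below the next lowest, 59 times in old fed replicate 4, 26 times in young fed replicate 4 and 0 times on the other 10 arrays. Both arrays lie in column 4 of the slide of fed rats. None of the 9 genes described was among them. Tagln, a smooth muscle actin-binding protein gene, lay at -1.97 in old fed replicate 4 and at 5.82 or above elsewhere. Ltbp1, which encodes a microfibril-bound latent TGF-beta binding protein, lay at -5.34 in young fed replicate 4 and at -2.04 or above elsewhere. Neither gene's spots carried an outlier mark there.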
